A study of Bos taurus with 6 samples.

Results

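Respiratory complex I, the NADH:ubiquinone oxidoreductase of the inner mitochondrial membrane, was followed at the mRNA level in single bovine (Bos taurus) oocytes. Its members were taken as every gene row of the expression table whose symbol begins with NDUF, which gave 59 of 20707 rows, carrying 46 symbols. By their known roles these were 8 rows of the 7 nuclear-encoded core subunits, 42 rows of 30 accessory subunits, 6 rows of NDUFAF assembly factors and 3 rows of other NDUF symbols. MII oocytes, arrested at metaphase of the second meiotic division, had been matured in vitro for 24 h. GV oocytes, in which the germinal vesicle (the prophase nucleus) is intact, were taken when cumulus-oocyte complexes were aspirated from abattoir ovaries. No genotype, breed or treatment other than maturation is given for either stage. Each stage has 3 libraries, MII14c, MII15 and MII15c against GV14, GV14c and GV15. The numbers and the letter c are the authors' library names, whose meaning is not stated. The column names MII15c and GV14c match no sample title, and 1 label calls all samples matured in vitro, so stage was read from the titles and the stage label. Nothing states that the oocytes came from separate animals or that a c library is a separate oocyte. The p-values therefore only set the stage difference against the scatter of these 6 libraries within a stage, which may be technical.

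Complex I is an L-shaped enzyme whose matrix arm takes electrons from NADH and passes them along a chain of iron-sulphur clusters to ubiquinone, while its membrane arm pumps protons. The core subunits carry this chemistry, and those of the membrane arm are encoded by mitochondrial DNA. The mitochondrially encoded subunits are not analysed here. Accessory subunits surround the core and are needed for its assembly and stability, and assembly factors help to build the complex but are absent from the finished enzyme. Oocytes inherit and transmit mitochondria maternally, and a maturing oocyte is transcriptionally quiet while it lengthens, shortens and degrades its stored mRNA. The cDNA was primed on poly(A) tails, so loss of an mRNA and loss of its tail cannot be told apart in these values. Levels are RPKM, reads divided by the length of the gene model and by the mapped reads of the library, so they are per length and relative to each library's total.

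Depth, recovered from the steps of low RPKM values, was 21.4 to 32.7 M reads in MII libraries and 20.3 to 30.1 M in GV libraries. The numbers of genes at 1 RPKM or more were 7170 to 8087 in MII and 8401 to 9304 in GV. Spearman correlations of libraries across genes were 0.908 to 0.947 within a stage and 0.868 to 0.920 between stages. Of the markers for the cumulus cells around an oocyte, LHCGR and PTX3 were listed at 0 in all 6 libraries and FSHR in all but GV14c, where it had 0.014 RPKM. The summed level of 12 cumulus markers was 72.9 to 91.0 RPKM in MII and 30.5 to 40.2 RPKM in GV, of which HAS2 was 55.4 to 64.8 RPKM in MII and 11.6 to 18.9 RPKM in GV. The summed level of 10 oocyte markers was 2877 to 3707 RPKM in MII and 5821 to 8905 RPKM in GV. In the test given below, the oocyte markers GDF9, NLRP5, ZAR1, ZP2, ZP3 and ZP4 were called lower in MII. BMP15, DAZL, H1FOO and OOEP were not called. Of the cumulus markers, HAS2 and VCAN were called higher in MII and CD44 lower. GREM1 and PTGS2 were not called, and the rest were too low to test. The part of either list in the results was not tested. By sample title, library adapters were diluted 1 in 50 for MII14c and MII15, against 1 in 30 for GV14 and 1 in 10 for GV15. The sample titled MII14 was at 1 in 30 like GV14, but no column carries its name, and no dilution is matched to the columns MII15c and GV14c. The part of dilution in the results was not tested.

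Most complex I mRNAs were lower in MII than in GV oocytes. The test was run on the 8671 genes whose mean over the libraries reached 1 RPKM, and 42 NDUF rows were among them. Of those 42 rows, 31 fell (73.8%), 1 rose (2.38%) and 10 were not called (limma on log2(RPKM + 1), Benjamini-Hochberg adjusted p under 0.05). Over all tested genes 26.9% fell and 13.4% rose. The median log2 change, MII minus GV, was -1.82 for the NDUF rows and -0.16 for all tested genes, a difference of -1.65. The members' changes ran between -5.08 and 0.79, and 16 of them fell by at least 2 on the log2 scale. The 3 MII libraries lay wholly below the 3 GV libraries for 32 NDUF rows and wholly above them for 3, against 32.1% and 19.8% of all tested genes. NDUFB6 alone among the members rose, and its call was lost when GV14, GV15 or MII15c was left out, as given with its values. Leaving out 1 library at a time gave 26 to 32 members that fell, of 41 to 43 tested. In those fits 1749 to 2246 of all genes fell, with 8405 to 8808 tested.

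**Figure D1:**
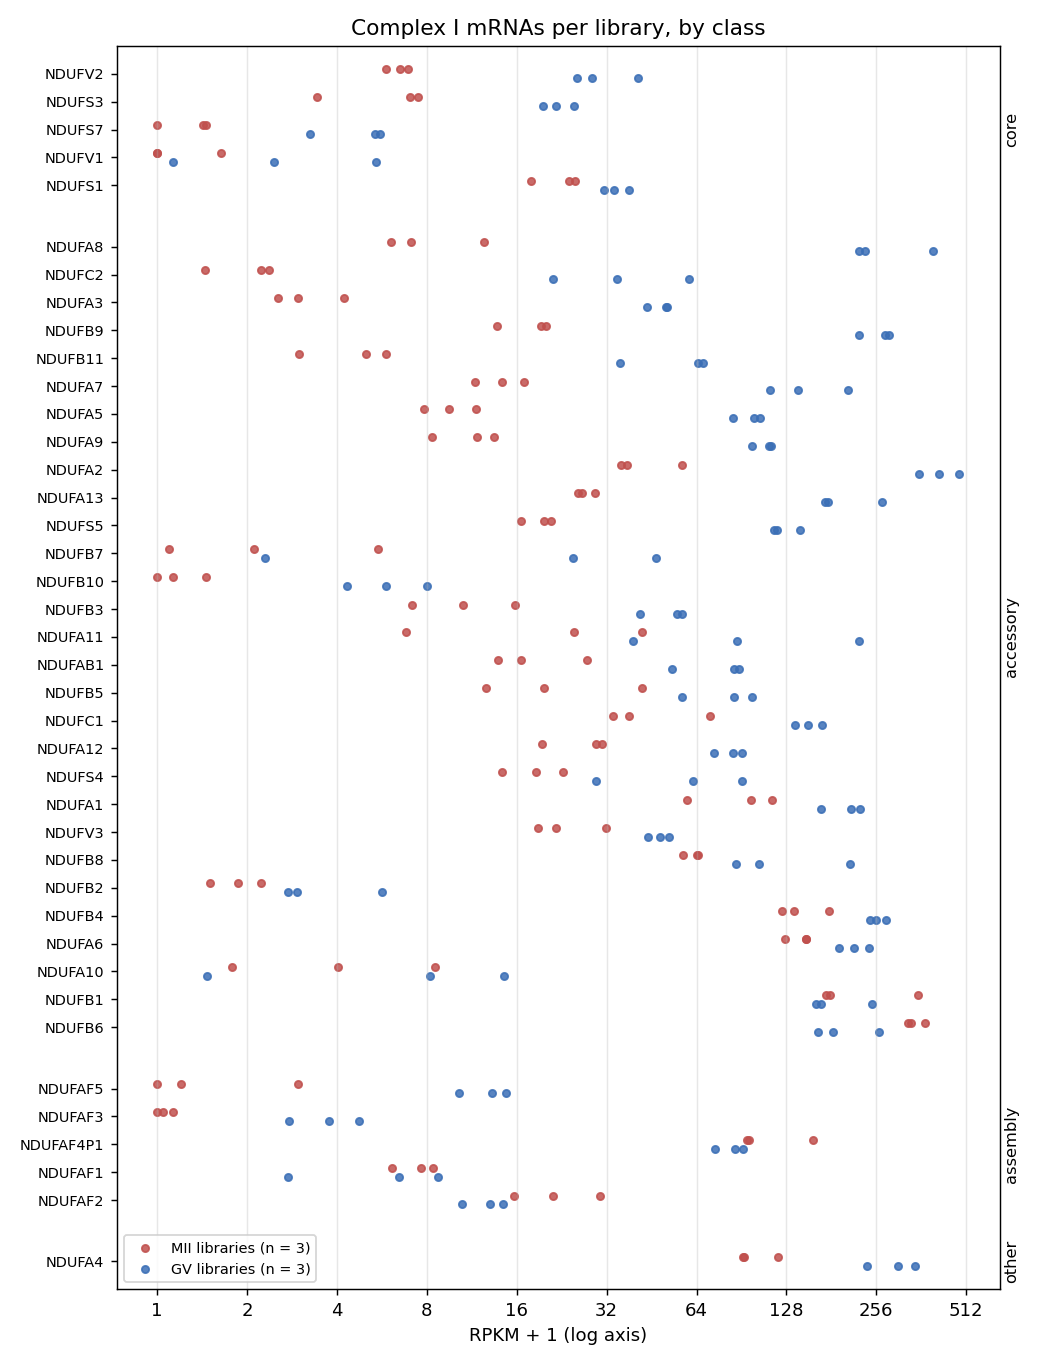
Level of each tested complex I mRNA as RPKM + 1 on a log axis, with 1 point per library, MII points drawn above GV points, and the row of highest mean for each symbol (1 core subunit is not drawn). In most accessory subunits the 3 MII points lie left of the 3 GV points, NDUFB6 is the reverse, and the assembly factors are divided.

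Summed over the core and accessory rows, complex I subunit mRNA was 1404 ± 184 RPKM in MII and 3802 ± 520 RPKM in GV libraries (SD, n = 3 each), 2.71 times higher in GV. By library the sum was 1336 RPKM in MII14c, 1613 in MII15 and 1263 in MII15c, and 3354 RPKM in GV14, 4373 in GV14c and 3678 in GV15. The highest MII sum was below the lowest GV sum, and with 3 libraries a stage the smallest p that a two-sided exact permutation test can give is 0.1. As a share of all RPKM in the library, subunit rows made up 0.384% ± 0.0433 in MII and 0.943% ± 0.0863 in GV. Core rows summed to 42.7 ± 5.91 RPKM in MII against 115 ± 18.0 in GV, and accessory rows to 1361 ± 179 against 3687 ± 513. These sums were 2.69 and 2.71 times higher in GV. The median log2 change of tested rows was -1.47 for the core and -2.13 for accessory rows, with no test between them. Of core and accessory RPKM, 41.1% in MII and 10.2% in GV came from the accessory rows NDUFB6 and NDUFB1. Assembly factor rows summed to 144 ± 41.4 RPKM in MII and 114 ± 10.6 in GV. Their MII and GV libraries overlapped, with 116, 191 and 124 RPKM in MII14c, MII15 and MII15c against 118, 103 and 122.8 RPKM in GV14, GV14c and GV15.

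The make-up of the subunit pool is given as a description. NDUFB6 and NDUFB1, small accessory subunits of the membrane arm that were singled out after their values were seen, together made up 37.8%, 42.6% and 43.1% of subunit RPKM in MII14c, MII15 and MII15c. Their share was 9.63%, 11.6% and 9.48% in GV14, GV14c and GV15. Without that pair the subunit sum was 826 ± 104 RPKM in MII and 3409 ± 423 RPKM in GV, 4.13 times higher in GV. Both genes of the pair had a higher mean in MII, so leaving them out was bound to raise this ratio above 2.71. Among all NDUF rows, the 3 of highest mean level were NDUFB6, NDUFB1 and NDUFB4 in MII, and NDUFA2, NDUFA4 and NDUFA8 in GV. No name was shared. NDUFA4 is 1 of the other NDUF symbols and is not in the subunit sums.

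**Figure D2:**
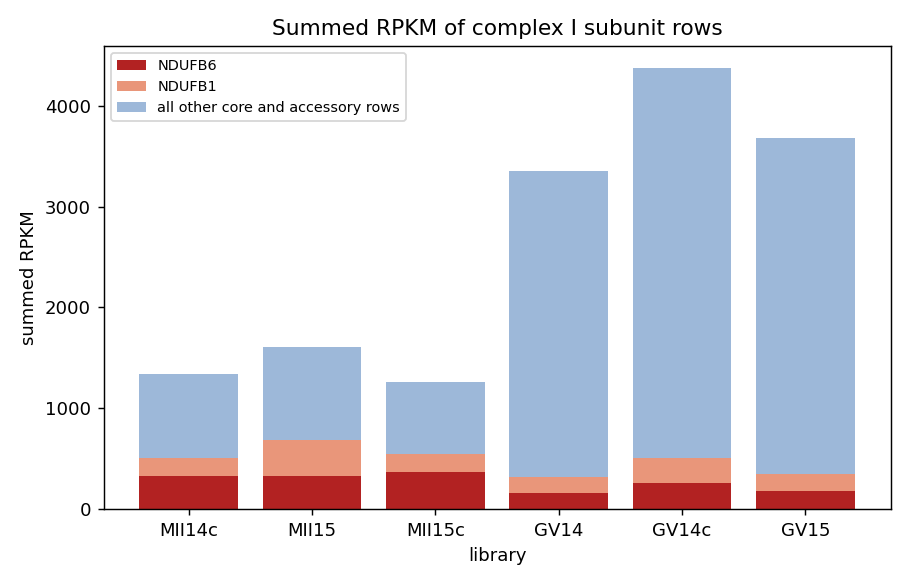
Summed RPKM of the core and accessory rows in each library, stacked as NDUFB6, NDUFB1 and all other rows. The stack without that pair is 719 to 926 RPKM in the MII libraries and 3031 to 3866 RPKM in the GV libraries, while NDUFB6 is taller in each MII library.

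No nuclear-encoded core subunit averaged above 33.4 RPKM in either stage. Of the 6 tested core rows 4 fell (66.7%), none rose by limma, 0 were higher at an unadjusted p under 0.05, and the median log2 change was -1.47. Among all 8671 tested genes 26.9% fell, and 1521 were higher at that unadjusted p. NDUFV1, which binds the flavin that accepts electrons from NADH, had 0.637 RPKM in MII14c and was listed at 0 in MII15 and MII15c, against 1.46, 4.42 and 0.131 RPKM in GV14, GV14c and GV15. NDUFV2, its partner and holder of an iron-sulphur cluster, had 4.83, 5.94 and 5.51 RPKM in MII14c, MII15 and MII15c, against 27.6, 39.8 and 24.6 RPKM in GV14, GV14c and GV15. NDUFS1, the large subunit that carries several of the clusters, had 22.9, 24.0 and 16.8 RPKM in MII and 37.1, 32.7 and 30.3 RPKM in GV, in the same library order. So NDUFV2 and NDUFS1 had separate stages, while the NDUFV1 ranges overlapped because GV15 was near the MII level. NDUFV2 fell by 2.27 on the log2 scale (SE 0.27, adjusted p = 0.00035, limma). NDUFS1 changed by -0.64 ± 0.24 (SE, adjusted p = 0.0590) and NDUFV1 by -1.07 ± 0.53 (adjusted p = 0.140), neither of which passed. Both passed when 1 library was left out, NDUFS1 without MII15 (adjusted p = 0.0431) and NDUFV1 without GV15 (adjusted p = 0.0219).

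Other core subunits connect this NADH-oxidising end to the quinone site. NDUFS7, an iron-sulphur protein beside the ubiquinone-binding site, had 0.423, 0 and 0.459 RPKM in MII14c, MII15 and MII15c, against 4.37, 4.57 and 2.26 RPKM in GV14, GV14c and GV15. Its stages did not overlap, and it fell by 1.85 (SE 0.34, adjusted p = 0.00302). NDUFS3, a scaffold of the same module, had 6.02, 6.46 and 2.42 RPKM in MII against 20.7, 23.9 and 18.6 RPKM in GV and fell by 1.96 (SE 0.35, adjusted p = 0.00244). NDUFS8, another iron-sulphur protein near that site, was below the level needed for testing. It had 0.200, 0.243 and 0.668 RPKM in MII and 1.18, 1.39 and 0.768 RPKM in GV, with no overlap. NDUFV1 and NDUFS8 lie near each other on chromosome 29 in the deposited annotation, whose build is not given in the sources used here, with mRNAs at 46108281 to 46114242 and 46205045 to 46208875.

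On the scale of log2(RPKM + 1), the accessory subunits held the largest falls. Of 30 tested accessory rows, 24 fell (80.0%), 1 rose (3.33%) and 5 were not called, and the median log2 change was -2.13. Over all 8671 tested genes 26.9% fell and 13.4% rose, with a median of -0.16. NDUFA8, a cysteine-paired (CHCH-fold) protein on the intermembrane-space face, had 11.4, 6.09 and 5.06 RPKM in MII14c, MII15 and MII15c. It had 222, 396 and 234 RPKM in GV14, GV14c and GV15. By mean level it ranked 27 among the members in MII and 3 in GV, and its mean was 37.8 times lower in MII. Its log2 change of -5.08 ± 0.33 (SE, adjusted p = 2.13e-05) was the lowest among all 8671 tested genes, and it stayed between -5.39 and -4.61 under every alternative setting. Its mRNA spans bases 93011812 to 93029730 of chromosome 11 in the deposited annotation, with 4 coding exons.

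NDUFB9, a LYR-motif protein of the membrane arm that binds an acyl carrier protein, had 19.0, 18.4 and 12.8 RPKM in MII and 223, 281 and 273 RPKM in GV. It fell by 3.89 on the log2 scale (SE 0.23), with the smallest adjusted p among the members (1.54e-05). NDUFC2, which helps join parts of the membrane arm, had 1.38, 0.440 and 1.23 RPKM in MII against 33.6, 59.4 and 20.1 RPKM in GV, and it fell by 4.16 (SE 0.42). NDUFA3, a small membrane-arm subunit, had 1.53, 1.96 and 3.24 RPKM in MII against 49.5, 42.8 and 50.1 RPKM in GV, and it fell by 3.93 (SE 0.28). In each of these genes the highest MII library was under the lowest GV library by a wide margin. NDUFB11, an X-linked membrane-arm subunit, had 4.0, 1.98 and 4.86 RPKM in MII and 63.6, 66.2 and 34.6 RPKM in GV, and it fell by 3.60 (SE 0.36).

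Matrix-arm accessory subunits were next in size of fall. NDUFA7 had 15.96, 13.3 and 10.6 RPKM in MII and 111, 205 and 139 RPKM in GV, and it fell by 3.39 (SE 0.28). NDUFA5 had 8.51, 10.7 and 6.83 RPKM in MII and 83.8, 103 and 99.0 RPKM in GV, and it fell by 3.33 (SE 0.24). NDUFA9, a nucleotide-binding subunit at the junction of the arms, had 12.4, 7.33 and 10.8 RPKM in MII and 97.3, 112 and 111 RPKM in GV, and it fell by 3.30 (SE 0.25). None of these genes overlapped between stages. NDUFA2, of a thioredoxin-like fold, had 36.3, 56.3 and 34.8 RPKM in MII14c, MII15 and MII15c and 415, 355 and 485 RPKM in GV14, GV14c and GV15, where it was the highest member by mean. It fell by 3.29 (SE 0.24).

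The other accessory subunits that fell had log2 changes between -2.90 and -0.61. The larger of these falls were in NDUFA13 (-2.90), which is also known as GRIM-19, in NDUFS5 (-2.73), and in NDUFB10 (-2.31), NDUFB3 (-2.26), NDUFA11 (-2.25) and NDUFAB1 (-2.0), the mitochondrial acyl carrier protein. Next came NDUFB5 (-1.84), NDUFC1 (-1.75), NDUFA12 (-1.67) and NDUFS4 (-1.59), followed by NDUFA1 (-1.19), NDUFV3 (-1.03), NDUFB8 (-0.99), NDUFB4 (-0.84) and NDUFA6 (-0.61). Several of these calls depended on single libraries or on the scaling. NDUFA6 lost its call without GV14, GV14c, GV15, MII14c or MII15c (adjusted p = 0.0518, 0.0807, 0.0896, 0.0922 and 0.0838). NDUFB8 lost its call without GV14c, MII14c, MII15 or MII15c (adjusted p = 0.0612, 0.0664, 0.0707 and 0.0864) and when the number 14 or 15 was fitted as a block (adjusted p = 0.0587). NDUFB4 and NDUFV3 lost theirs without MII15c (adjusted p = 0.0610 and 0.0570). Under median-ratio, quantile and TPM scaling, NDUFA6 (adjusted p = 0.347, 0.0949 and 0.0653) and NDUFB8 (0.0883, 0.0595 and 0.0503) lost their calls. Both also lost them in limma without the trend (adjusted p = 0.0781 and 0.0552). NDUFA1 and NDUFB4 lost theirs under median-ratio scaling (adjusted p = 0.0587 and 0.169). Of the LYR proteins that bind NDUFAB1 in the complex, NDUFB9 fell by 3.89 and NDUFA6 by 0.61, and the difference between them was not tested.

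**Figure D3:**
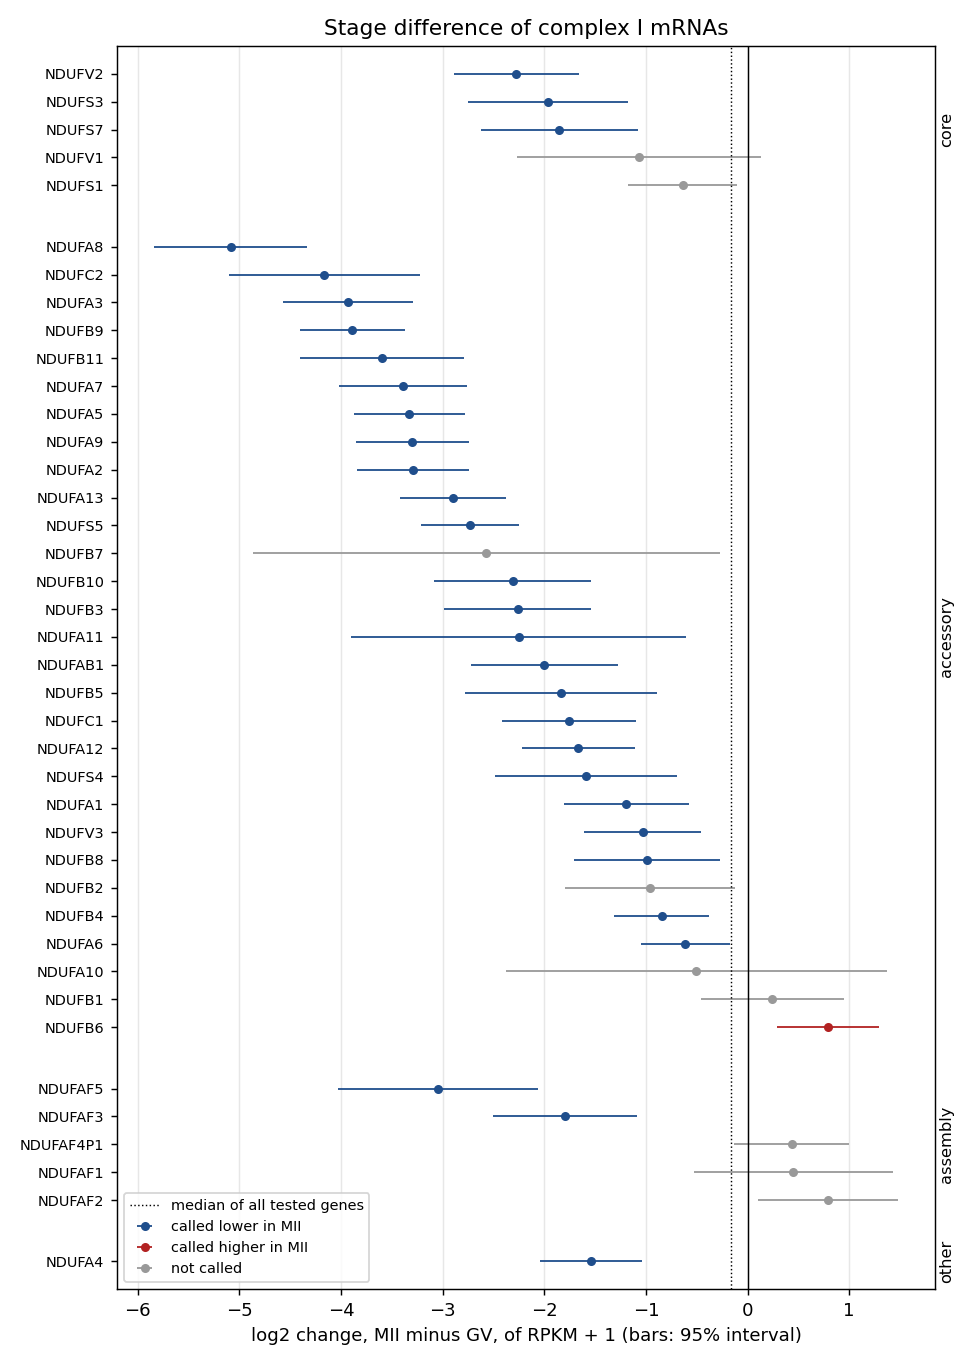
Log2 change of RPKM + 1, MII minus GV, of the tested complex I mRNAs, with 95% intervals from limma and the row of highest mean for each symbol (1 core subunit is not drawn). The largest falls are in accessory subunits, led by NDUFA8 at -5.08, and NDUFB6 at 0.79 is the member called higher.

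NDUFB6 went the other way. It had 327, 333 and 372 RPKM in MII14c, MII15 and MII15c, against 163, 261 and 183 RPKM in GV14, GV14c and GV15, with no overlap. Its mean was 344 ± 24.3 RPKM in MII and 202 ± 51.7 RPKM in GV, and its log2 change was 0.79 ± 0.22 (SE, adjusted p = 0.0209). The call was lost without GV14 (adjusted p = 0.0804), without GV15 (adjusted p = 0.0693) or without MII15c (adjusted p = 0.0845). The change itself stayed between 0.65 and 1.07 under the alternatives, where the adjusted p ran from 0.000149 to 0.0845. The NDUFB6 mRNA spans bases 11372938 to 11389199 of chromosome 8 in the deposited annotation and has 4 coding exons. NDUFB1, the shortest tested member with 177 coding bases, had 178, 353 and 173 RPKM in MII and 160, 246 and 166 RPKM in GV. Its stages overlapped, and its change of 0.24 ± 0.31 did not pass (adjusted p = 0.569) and was -0.09 without MII15. NDUFB4 had 135, 177 and 122.9 RPKM in MII and 243, 255 and 276 RPKM in GV, so its place among the 3 highest MII members came with a fall.

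By position in the enzyme, 12 of 14 tested matrix-arm rows fell (85.7%) with a median log2 change of -1.76, and 15 of 21 membrane-arm rows fell (71.4%) with a median of -2.25. Among all tested genes 26.9% fell and 13.4% rose, with a median of -0.16. Neither arm's figures were set against the other by a test. The matrix arm had 2 rows that did not pass, NDUFS1 and NDUFV1, and none that rose, while the membrane arm held NDUFB6 and the other uncalled subunits. The uncalled accessory subunits were NDUFB7 (-2.57), NDUFB2 (-0.96), NDUFA10 (-0.50), NDUFB1 (0.24) and a further row named NDUFB8 (-0.58).

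In 4 subunits the spread within a stage was wide, and these were picked after their values were seen. NDUFA11, a membrane-arm subunit that helps hold complex I in supercomplexes, had 41.0, 5.84 and 23.8 RPKM in MII14c, MII15 and MII15c and 86.5, 224 and 38.1 RPKM in GV14, GV14c and GV15. It changed by -2.25 (SE 0.73, adjusted p = 0.0353), a call made although the stages overlapped and lost without GV14, GV14c, MII15 or MII15c (adjusted p = 0.0842, 0.112, 0.0906 and 0.0705). NDUFB7 had 4.47, 0.0950 and 1.12 RPKM in MII and 23.7, 45.9 and 1.30 RPKM in GV, and its change of -2.57 ± 1.02 did not pass (adjusted p = 0.0718). It passed without GV15 (adjusted p = 0.00292) and with the number as a block (adjusted p = 0.0368). In both genes MII14c was the highest MII library, GV14c the highest GV library, and the 15 libraries without the letter c were the lowest of each stage. NDUFA10, a membrane-arm subunit related to nucleoside kinases, had the same order, with 7.54, 0.780 and 3.02 RPKM in MII and 7.21, 13.5 and 0.469 RPKM in GV, and a change of -0.50 ± 0.83 (adjusted p = 0.660). That change had the other sign without GV14c (0.18), without MII15 (0.07) and with the number as a block (0.26), and was -1.47 without GV15. When the letter c was a term beside stage, NDUFA11 was 2.09 higher in c libraries on the log2 scale (adjusted p = 0.00459). NDUFB7 was 2.14 higher (adjusted p = 0.0901) and NDUFA10 1.89 higher (adjusted p = 0.0625), neither of which passed. Across the 42 tested members this term called 1 member higher in c libraries, NDUFA11, and 2 lower, NDUFAB1 and NDUFB5, against 5.73% and 1.56% of all tested genes.

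**Figure D4:**
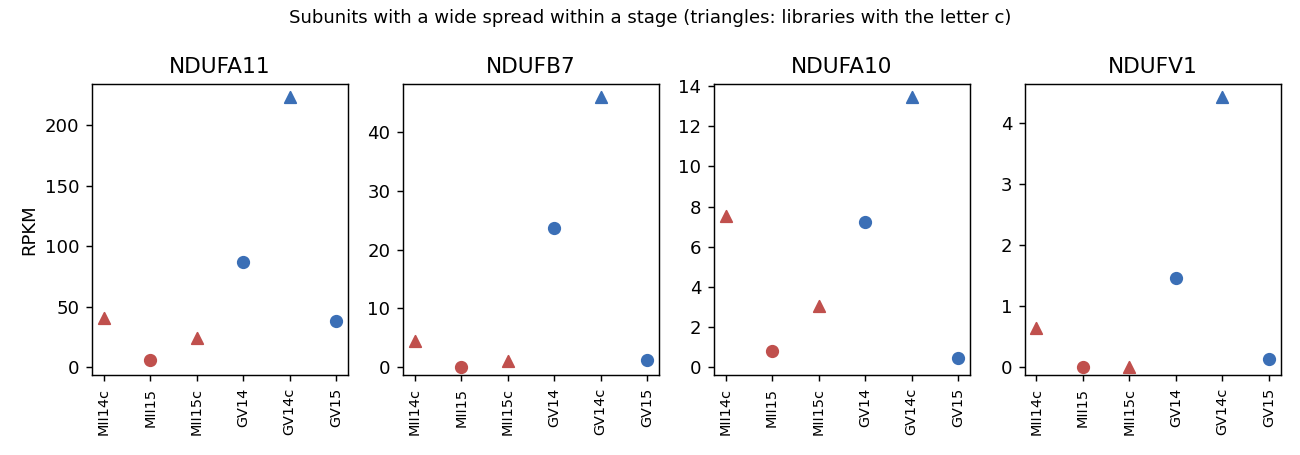
RPKM of NDUFA11, NDUFB7, NDUFA10 and NDUFV1 in each library, MII in red and GV in blue, with triangles for libraries whose name carries the letter c. The GV14c triangle is the highest point in each panel, and GV15 is the lowest GV point in each.

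The assembly factors were divided. Of 5 tested NDUFAF rows, 2 fell (40%), none rose and 3 were not called by limma, and the median log2 change was 0.43. At an unadjusted p under 0.05, 1 of the 5 was higher. Over all 8671 tested genes 26.9% fell, and 1521 were higher at that unadjusted p. NDUFAF5, which hydroxylates an arginine of NDUFS7 early in assembly, had 0.200, 0 and 1.96 RPKM in MII14c, MII15 and MII15c and 13.7, 12.2 and 9.26 RPKM in GV14, GV14c and GV15, and it fell by 3.04 (SE 0.44, adjusted p = 0.000870). NDUFAF3, which acts with NDUFAF4 on the quinone-side module, had 0.0450, 0 and 0.129 RPKM in MII and 3.75, 1.77 and 2.78 RPKM in GV, and it fell by 1.80 (SE 0.31, adjusted p = 0.00223). Both were near 0 in every MII library except NDUFAF5 in MII15c. With 0.1 added to RPKM in place of 1, the log2 changes were -4.88 for NDUFAF5 and -4.20 for NDUFAF3. The NDUFAF3 mean was 47.7 times lower in MII. Without GV14, NDUFAF3 fell below the level for testing and 1 assembly factor was called lower.

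The other tested assembly factors did not pass the test. NDUFAF2, a paralog of NDUFA12 that acts late in assembly, had 14.7, 29.5 and 20.1 RPKM in MII and 9.50, 13.4 and 12.0 RPKM in GV. Its stages did not overlap, and its change of 0.79 ± 0.31 did not pass (adjusted p = 0.0669) except without MII14c (adjusted p = 0.0343) and under 5 other settings. The row named NDUFAF4P1, which the deposited annotation calls NDUF4_BOVIN and gives 3 coding exons, was the most abundant assembly factor, with 93.5, 157 and 95 RPKM in MII and 84.8, 73.0 and 90.5 RPKM in GV. It too had no overlap, and its change was 0.43 ± 0.25 (adjusted p = 0.197). NDUFAF1, a member of the membrane-arm assembly complex, had 7.41, 5.11 and 6.66 RPKM in MII and 5.46, 1.75 and 7.69 RPKM in GV (change 0.45 ± 0.44, adjusted p = 0.442), and without GV14c its change was -0.03. NDUFAF6 was too low to test, with 0.103, 0.0380 and 0.369 RPKM in MII and 0.910, 0.476 and 0.574 RPKM in GV.

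Assembly factors without an NDUF symbol stood on 14 rows, of which 8 were tested. By limma 3 fell and none rose, 2 were higher at an unadjusted p under 0.05, and the median log2 change was -0.29. Over all 8671 tested genes 26.9% fell, 13.4% rose and 1521 were higher at that unadjusted p. TMEM126B, which works beside NDUFAF1, had 13.0, 5.13 and 10.3 RPKM in MII and 69.5, 90.3 and 88.3 RPKM in GV, and it fell by 3.07 (SE 0.32, adjusted p = 0.000173). Its relative TMEM126A had 2.29, 0.973 and 3.06 RPKM in MII and 32.3, 29.2 and 35.2 RPKM in GV, and it fell by 3.48 (SE 0.33, adjusted p = 9.15e-05). ECSIT, another partner of NDUFAF1, had 1.17, 0 and 0.659 RPKM in MII and 7.99, 9.56 and 3.89 RPKM in GV, and it fell by 2.34 (SE 0.42, adjusted p = 0.00256). The rows named C2orf56, COA1, NUBPL, TIMMDC1 and TMEM70 did not pass. C2orf56, an older symbol of NDUFAF7, a methyltransferase, averaged 62.3 ± 13.6 RPKM in MII and 41.8 ± 6.44 RPKM in GV (adjusted p = 0.0915). TIMMDC1, a membrane-arm assembly factor, averaged 11.6 ± 3.01 RPKM in MII and 5.91 ± 2.06 RPKM in GV (adjusted p = 0.0593).

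Among the NDUF symbols outside complex I, NDUFA4, now counted as a subunit of complex IV, had 91.4, 119 and 90.6 RPKM in MII and 236, 343 and 302 RPKM in GV and fell by 1.54 (SE 0.22, adjusted p = 0.000874). Its paralog NDUFA4L2 was listed at 0 in all MII libraries and had 0.506, 1.28 and 0.150 RPKM in GV, too low to test. The row named NDUFC2-KCTD14, which the deposited annotation calls KCTD14 and gives 1 coding exon, was listed at 0 in all 6 libraries. Of 23 tested subunit rows of complexes II, III and IV, 19 fell (82.6%) and 1 rose (4.35%), with a median log2 change of -2.20. Of 18 ATP synthase rows, 10 fell (55.6%) and 2 rose (11.1%), with a median of -1.44. For all tested genes these shares were 26.9% and 13.4%, with a median of -0.16. No test set the complexes against each other.

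Of the 59 rows, 17 were below the level for testing, 6 of them listed at 0 in every library, and the highest value in any of the 17 was 1.67 RPKM. For 5 of the 17 this was the symbol's highest row: NDUFS8, NDUFS6, NDUFAF6, NDUFA4L2 and NDUFC2-KCTD14. NDUFS6, a zinc-binding matrix-arm subunit, had 0.0250, 0 and 0 RPKM in MII14c, MII15 and MII15c and 0.0780, 0.403 and 0 RPKM in GV14, GV14c and GV15. The other 12 were further rows of symbols that stood on several rows: NDUFB2 on 4, NDUFA2, NDUFB8 and NDUFV3 on 3 each, and NDUFA3, NDUFB4, NDUFC1 and NDUFV2 on 2 each. Of 13 further rows, 4 have a single coding exon, 6 have no coding record in the deposited annotation, and only the NDUFB8 row of 4 coding exons on chromosome 10 was tested. That row had 0.961, 0.115 and 1.16 RPKM in MII and 1.51, 2.68 and 0.724 RPKM in GV. Reads of near-identical copies can be split between such rows, so these low values are uncertain. The highest row of NDUFB8 had 63.5, 56.7 and 63.3 RPKM in MII and 85.5, 208 and 102 RPKM in GV. The highest row of NDUFC1 had 32.5, 69.9 and 37.0 RPKM in MII and 150.4, 136 and 167 RPKM in GV. That of NDUFV3, a flavoprotein-associated subunit, had 30.7, 20.6 and 17.9 RPKM in MII and 43.0, 50.9 and 47.3 RPKM in GV. None of these highest rows overlapped between stages. NDUFB2 was low even in its highest row, with 1.23, 0.504 and 0.866 RPKM in MII and 1.74, 4.68 and 1.94 RPKM in GV (change -0.96 ± 0.37, adjusted p = 0.0671).

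By their medians the tested members had a compact gene structure, which played no part in choosing them. Single members departed from it, as NDUFS1 had 18 coding exons and NDUFA12 had 22386 bases from stop codon to mRNA end. The median coding length of the 42 tested members was 468 bases, against 1278 bases for all tested genes, and they had a median of 4 coding exons against 9. From the stop codon to the end of the mRNA the median genomic distance was 151 bases in members and 799 in all tested genes. Within the members the log2 change had a Spearman correlation of 0.14 with coding length, 0.0048 with the number of coding exons and 0.11 with the distance from the stop codon (n = 42). Over all tested genes with such records these correlations were 0.29 (n = 8469), 0.21 (n = 8469) and 0.23 (n = 8416). They are descriptions across genes, which share libraries and are not independent replicates.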

How the data were processed

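The authors deposited RPKM per Ensembl gene for 6 single-oocyte libraries, and a coordinate annotation extended by transcript discovery, per the file headers. The labels' protocols give SMARTer Ultralow cDNA and single 50-base Illumina reads. The submitters' processing notes name DESeq without a role. The aligner, the counter and the build of the genome are not named in the labels or headers. Gene symbols are those of the RPKM table.

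RPKM are not counts, so limma 3.58.1 in R 4.3.3 (lmFit, eBayes with trend) was run on log2(RPKM + 1) where the mean reached 1 RPKM. MII was compared with GV, and p-values were adjusted by Benjamini-Hochberg over all tested genes (threshold 0.05). A log2 change on this scale understates the change of low genes. The fit was tested on simulated data. Depth was found from 3732 genes whose model is coding sequence alone. At the depth chosen, 91.0% to 94.6% of values below 10 reads lay within 0.1 of a whole read. Amplified reads are not independent molecules.

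The members and lists were chosen with earlier results of these data known. Values per library are given for core subunits, tested assembly factors, accessory subunits called higher, the 8 largest accessory falls, symbols on several rows and the 3 highest members of each stage. Further named members were chosen after their values were seen. Alternatives numbered 19. The values of 1 core subunit are not reported here, though it enters the counts and sums.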

Additional observations from a re-analysis of the deposited data

How the results depend on the processing

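Over 19 alternative settings no member called in either direction changed sign. Of the uncalled members, NDUFA10, NDUFAF1, NDUFB1 and the further NDUFB8 row did, to 0.17 and -0.06 for NDUFA10 and NDUFAF1 without both columns that match no title and to 0.0017 for the NDUFB8 row under quantile normalization. Of 32 called members, 22 kept their call under every alternative that tested them and 10 lost it under at least 1, and 7 of 10 uncalled members were called under at least 1. Members that fell numbered 23 (without both columns that match no title) to 35 (library weights, letter c as a term), against 31. The falls among all tested genes moved too, from 2329 of 8671 to 1286 of 8456 without those columns. They numbered 3220 with library weights and 2975 with the letter c. Members that rose numbered 0 with no filter on low values and 3 when the letter c was a term. They numbered 2 under median-ratio scaling, quantile normalization, TPM scaling and library weights. Among all tested genes 741 of 20707 rose with no filter and 1370 to 2262 of 8671 under the other settings just named, against 1162. Leaving out 1 library gave 0 to 2 members that rose, and 588 to 1335 of all tested genes. Accessory rows that rose numbered 0 with no filter and 0 to 1 with 1 library left out. Assembly factors that rose numbered 1 under median-ratio scaling, quantile normalization, TPM scaling and library weights, 2 with the letter c, and 0 to 1 with 1 library left out; those that fell numbered 1 with a mean of at least 5 RPKM, where NDUFAF3 was not tested, and 1 to 2 with 1 library left out. The members' median log2 change of -1.82 was -2.12 with a pseudocount of 0.1, -1.03 with no filter, -1.62 under median-ratio scaling, -1.50 under quantile normalization, and -1.79 to -1.64 with 1 library left out. Scaling moved the share of falls among all calls, 66.7% as deposited, to 55.0% under median-ratio scaling and 45.4% under quantile normalization, and the median of all genes from -0.16 to 0.05 and 0.22. Relative to that median the members stood at -1.65, -1.67 and -1.72. A replicate block on the numbers 14 and 15, which libraries share only as a number, gave 31 that fell, 1 that rose and a median of -1.68. Over all tested genes the block gave 2134 falls and 1141 rises. Among the members it changed the calls of NDUFB7 and NDUFB8. The cause of these differences was not tested. Depth of 20.3 to 32.7 M reads limits what can be said of members near 0, and 3 libraries a stage limit the rest.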
